A study of Mus musculus with 4 samples.

Results

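The genes described here are 10 enzymes of the route from glucose to acetyl-CoA, chosen by name as the isoforms that male germ cells use in glycolysis and at the pyruvate dehydrogenase complex, together with somatic counterparts. The germ-cell isoforms were Gapdhs, Ldhc, Pgk2, Pdha2, Aldoart1 and Aldoart2, 6 genes in all, and the somatic isoforms were Ldha, Pgk1, Pdha1 and Hk1, 4 genes. Of the 10, 9 were among the 18820 genes that had a probe set of their own on the array, and Pdha1 had 2 probe sets that were both shared with another gene. The rule used gene names only.

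The samples were whole testes of adult Azin2 KO mice, homozygous for a β-Geo cassette placed inside Azin2, and of WT mice without it. Azin2 encodes antizyme inhibitor 2, a regulator of polyamine metabolism. The mutant line was kept on a mixed C57BL/6 background, it still makes a fusion of the start of AZIN2 with β-galactosidase, and the insertion acts in every cell type that uses the Azin2 promoter. Each genotype had 2 Affymetrix mouse gene arrays, each hybridised with RNA pooled from 3 mice, so that the p-values below measure the spread between pools and not between animals. The labels do not say whether the 2 pools of a genotype came from different mice, so this spread may be partly technical. All levels are log2 normalized signals as deposited, and every change is KO minus WT on the log2 scale.

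Mature sperm draw much of the ATP for swimming from glycolysis along the flagellum. Several steps are there carried out by isoforms that somatic cells do not normally use, some tethered to the fibrous sheath of the tail. Pgk2 and Pdha2 are intronless autosomal copies of the X-linked genes Pgk1 and Pdha1, and they are read during and after meiosis, when the X chromosome is silenced. Aldoart1 and Aldoart2 are likewise retrogenes of the aldolase gene Aldoa, whereas Ldhc arose by gene duplication. Hk1 has a spermatogenic form with its own first exons.

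The label of the KO arrays was checked first. Azin2 had 7.36 and 7.14 in KO testes, against 10.16 and 9.998 in WT testes. The KO arrays were far below the WT arrays, with a change of -2.83 ± 0.0995 (SE) and an adjusted p of 0.0250 in limma. The KO signal was thus 14.04% of the WT signal (95% interval 11.8 to 16.8%). This is a share of array signal and not of intact transcript, for which the paper's RT-PCR beyond the insertion gave a far lower share. No other named probe set passed an adjusted p of 0.05, and 1 of 23099 is 0.00433%. Of the 14 listed spermatid markers, 12 had a probe set of their own, among them Prm1, Tnp1 and Tnp2, which pack sperm DNA. The protamine Prm2 had none of its own. All 12 lay above the median of every array, taken over all probe sets. The share of named probe sets that do so was not counted, so this is not read as particular to these markers. In whole tissue, fewer cells of a type and less RNA per cell cannot be told apart, and this holds for every change below.

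None of the 9 enzymes with a probe set of their own passed an adjusted p of 0.05 in limma, and none passed an unadjusted p of 0.05, a level that 4.1% of all named probe sets reached. Their adjusted p was 0.9996 throughout. The joint limit of a 1.5-fold change and that unadjusted p was met by 0.0823% of named probe sets and by none of the 9. The changes lay between -0.064 for Ldhc and 0.046 for Pdha2, and the unadjusted p-values between 0.270 and 0.751. The standard errors of 0.047 to 0.116 set the size of change that could be seen. All 9 of the 95% intervals excluded a fold of 1.5 in either direction, and 7 of 9 excluded a fold of 1.2. Among all named probe sets 71.9% had an interval within a fold of 1.2. Among the 8083 at least as bright as the dimmest of these enzymes 78.7% did, so that 7 of 9 is near the background. At least these shares lie within the wider fold of 1.5, so 9 of 9 is not read as particular to these enzymes. A p above the threshold does not show that the genotypes had equal levels.

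**Figure D1:**
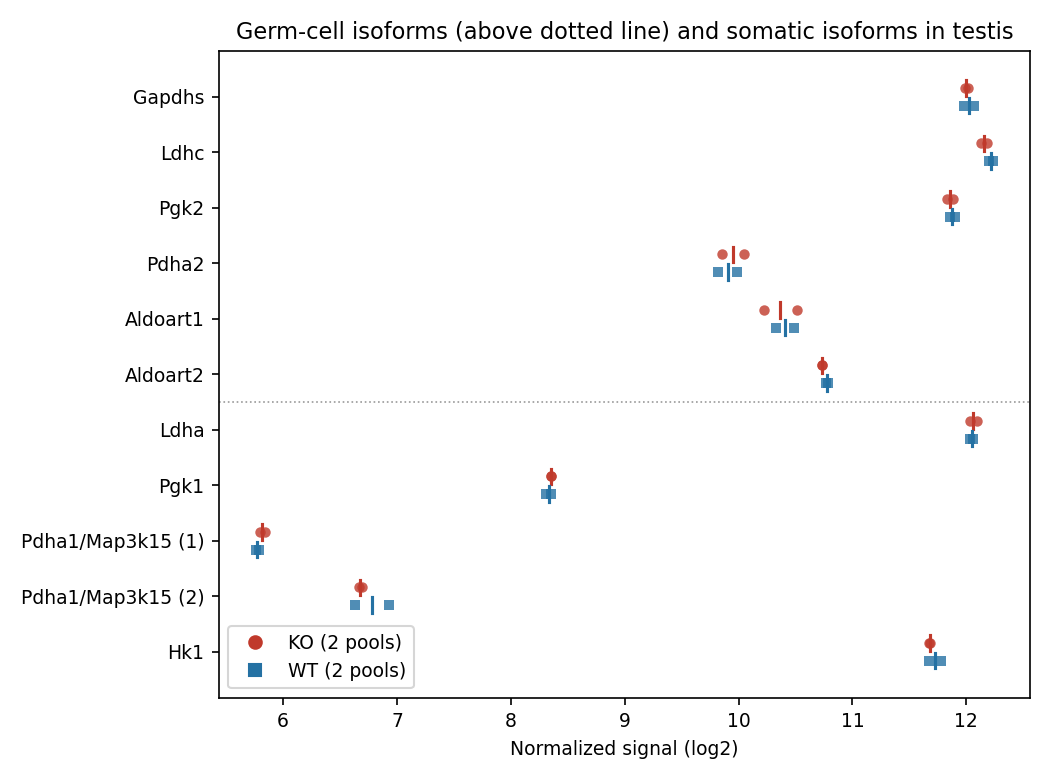
Normalized signal of each enzyme on the 4 arrays (log2, horizontal axis), with KO pools as red circles above WT pools as blue squares and a short bar at each mean. Germ-cell isoforms stand above the dotted line. The 4 points of an enzyme with a probe set of its own span at most 0.291, and the level on the horizontal axis is not comparable between probe sets.

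Aldolase splits fructose bisphosphate into a pair of triose phosphates, and Aldoart1 and Aldoart2 are its sperm forms. Aldoart1 had 10.51 and 10.22 in KO testes, against 10.33 and 10.49 in WT testes. The genotypes overlapped, the KO pools stood 0.291 apart, and the change was -0.044 ± 0.116 with an interval of -0.34 to 0.25, the widest of the 9. Aldoart1 lies on chromosome 4, as does Azin2. Aldoart2 had 10.73 and 10.74 in KO testes, against 10.79 and 10.77 in WT testes. Here both KO arrays were below both WT arrays, by a change of -0.047 ± 0.047 with an unadjusted p of 0.368 and an interval of -0.17 to 0.075. The somatic aldolase Aldoa had 11.26 and 11.25 in KO testes, against 11.35 and 11.23 in WT testes, a change of -0.030 with overlapping genotypes.

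Glyceraldehyde-3-phosphate dehydrogenase is the step at which the loss of Gapdhs in mice is known to leave sperm almost immotile. Gapdhs had 12.01 and 11.99 in KO testes, against 11.98 and 12.07 in WT testes. The KO arrays fell between the WT arrays, with means of 12.00 ± 0.015 in KO and 12.02 ± 0.063 in WT (SD, n = 2 each). The change was -0.022 ± 0.055, and KO was 98.5% of WT with an interval of 89.2 to 108.7%. A second, dimmer probe set of Gapdhs had 7.12 and 7.08 in KO testes, against 7.17 and 7.04 in WT testes, a change of -0.0085, so that both probe sets gave overlapping genotypes. The somatic Gapdh had 17 probe sets of its own among 41 that name it, a gene with many near-identical pseudogene copies. Its brightest had 11.90 and 12.02 in KO testes, against 11.97 and 11.85 in WT testes, a change of 0.054 with an unadjusted p of 0.493.

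Phosphoglycerate kinase makes the first ATP of the pathway, and Pgk2 is its meiotic and postmeiotic form. The start of Pgk2 on chromosome 17 and that of Pgk1 on the X chromosome are shown here because the somatic gene and its autosomal copy differ in base composition. The windows, from RefSeq on GRCm38.p6, run from 250 bases before to 50 after the transcript start, 5′ to 3′ on the gene's strand, and capitals mark GGGCGG and CCAAT on either strand.
Pgk2, chr17:40208560-40208859, minus strand: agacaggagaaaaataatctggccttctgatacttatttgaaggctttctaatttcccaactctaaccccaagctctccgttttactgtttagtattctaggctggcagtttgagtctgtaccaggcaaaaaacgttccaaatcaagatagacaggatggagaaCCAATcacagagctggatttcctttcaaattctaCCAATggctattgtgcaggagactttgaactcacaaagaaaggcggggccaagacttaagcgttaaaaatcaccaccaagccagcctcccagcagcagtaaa
Pgk1, chrX:106186850-106187149, plus strand: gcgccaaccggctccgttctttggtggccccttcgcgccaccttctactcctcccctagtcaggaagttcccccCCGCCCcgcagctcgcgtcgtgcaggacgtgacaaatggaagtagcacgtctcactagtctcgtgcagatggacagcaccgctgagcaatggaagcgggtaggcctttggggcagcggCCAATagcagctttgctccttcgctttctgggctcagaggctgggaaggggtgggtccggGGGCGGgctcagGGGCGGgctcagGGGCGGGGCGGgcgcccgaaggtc
The Pgk1 window held 5 copies of GGGCGG, the core of sites for the Sp1 family, the last 2 of them overlapping, and 1 CCAAT. The Pgk2 window held 2 CCAAT and no GGGCGG, and it had 4 CpG dinucleotides against 24 in the Pgk1 window, with a GC content of 43% against 66.7%. Pgk2 had 11.89 and 11.83 in KO testes, against 11.86 and 11.90 in WT testes. The genotypes overlapped, with a change of -0.021 ± 0.052, and KO was 98.5% of WT (interval 89.8 to 108.2%). Pgk1 had 8.35 and 8.36 in KO testes, against 8.35 and 8.31 in WT testes, a change of 0.023 ± 0.049 with an unadjusted p of 0.662. Its KO arrays were above its WT arrays by less than the decimals given here. Of its 3 probe sets, 2 had identical values, and the remaining probe set overlapped, at 8.31 and 8.30 in KO testes, against 8.30 and 8.26 in WT testes.

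Lactate dehydrogenase turns pyruvate and lactate into each other, and LDHC is the form that carries most of that activity in sperm. Ldha and Ldhc are neighbours on chromosome 7 with no annotated gene between them, and their starts are shown because 1 gene of the pair is used in nearly all tissues and the other only in germ cells. Capitals mark TGACG, the core of the cAMP response element, and GGGCGG, on either strand.
Ldhc, chr7:46861013-46861312, plus strand: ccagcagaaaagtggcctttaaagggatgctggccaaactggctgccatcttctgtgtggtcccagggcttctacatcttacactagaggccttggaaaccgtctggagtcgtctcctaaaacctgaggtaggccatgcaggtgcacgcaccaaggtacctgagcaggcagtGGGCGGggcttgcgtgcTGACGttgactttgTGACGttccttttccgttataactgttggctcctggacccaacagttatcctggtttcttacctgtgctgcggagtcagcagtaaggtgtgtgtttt
Ldha, chr7:46845554-46845853, plus strand: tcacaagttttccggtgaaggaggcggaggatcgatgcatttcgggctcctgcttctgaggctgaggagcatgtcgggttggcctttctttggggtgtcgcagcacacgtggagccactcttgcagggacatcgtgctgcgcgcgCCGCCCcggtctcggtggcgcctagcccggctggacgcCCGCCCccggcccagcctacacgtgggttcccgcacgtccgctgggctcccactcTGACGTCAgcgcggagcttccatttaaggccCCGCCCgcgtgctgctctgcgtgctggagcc
The Ldhc window held 2 copies of TGACG and 1 GGGCGG with 9 CpG, and the Ldha window held the full palindrome TGACGTCA once and 3 copies of GGGCGG with 30 CpG. Each gene had a second annotated start whose window is not shown. That of Ldhc held no TGACG and no GGGCGG with 3 CpG, and that of Ldha held 1 TGACG without the palindrome and no GGGCGG with 13 CpG. Ldhc had 12.13 and 12.18 in KO testes, against 12.23 and 12.20 in WT testes. Both KO arrays were below both WT arrays, by the largest change of the 9 enzymes, -0.064 ± 0.051, with an unadjusted p of 0.270. KO was 95.7% of WT, with an interval of 87.3 to 104.9%. Ldha had 12.04 and 12.09 in KO testes, against 12.04 and 12.06 in WT testes, and its overlapping genotypes gave a change of 0.017 ± 0.050.

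Over the 13 RefSeq windows of these genes, which cover 9 of the 10, TGACGTCA was in 0 of 7 germ-cell isoform windows and in 1 of 6 somatic ones, against 1.79% of all 32851 windows of the same length. TGACG, which the palindrome contains, was in 2 of 7 germ-cell and 3 of 6 somatic windows, against 20.8%. GGGCGG was in 1 of 7 germ-cell and 2 of 6 somatic windows, against 35.7% of all windows, and CCAAT in 2 of 7 and 1 of 6, against 37.4%. TATAAA was in 1 of 7 germ-cell windows and in 0 of 6 somatic ones, against 13.6%. The somatic windows include both windows of Hk1, and which form of Hk1 each start serves was not settled. Neither Hk1 window held any of these motifs. These are matches of letters only.

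The pyruvate dehydrogenase complex passes pyruvate on to acetyl-CoA, and Pdha2 encodes the germ-cell form of its E1 alpha subunit. Pdha2 had 10.05 and 9.86 in KO testes, against 9.82 and 9.99 in WT testes. The genotypes overlapped and the change was 0.046 ± 0.093, with an interval of -0.19 to 0.29 that did not exclude a fold of 1.2. Pdha1, the X-linked somatic form, had no value of its own, because both of its probe sets also carry Map3k15, whose annotated span overlaps that of Pdha1 by 1128 bases. The brighter of the shared probe sets had 6.69 and 6.66 in KO testes, against 6.64 and 6.93 in WT testes, and the dimmer had 5.84 and 5.80 in KO testes, against 5.79 and 5.76 in WT testes. The first overlapped and the second had both KO arrays higher, with changes of -0.10 and 0.044.

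Hexokinase 1 phosphorylates glucose on entry. Hk1 had 11.68 and 11.68 in KO testes, against 11.67 and 11.78 in WT testes, a change of -0.043 ± 0.058 with overlapping genotypes. Its probe set pairs with somatic and spermatogenic transcripts alike, so the forms could not be told apart.

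**Figure D2:**
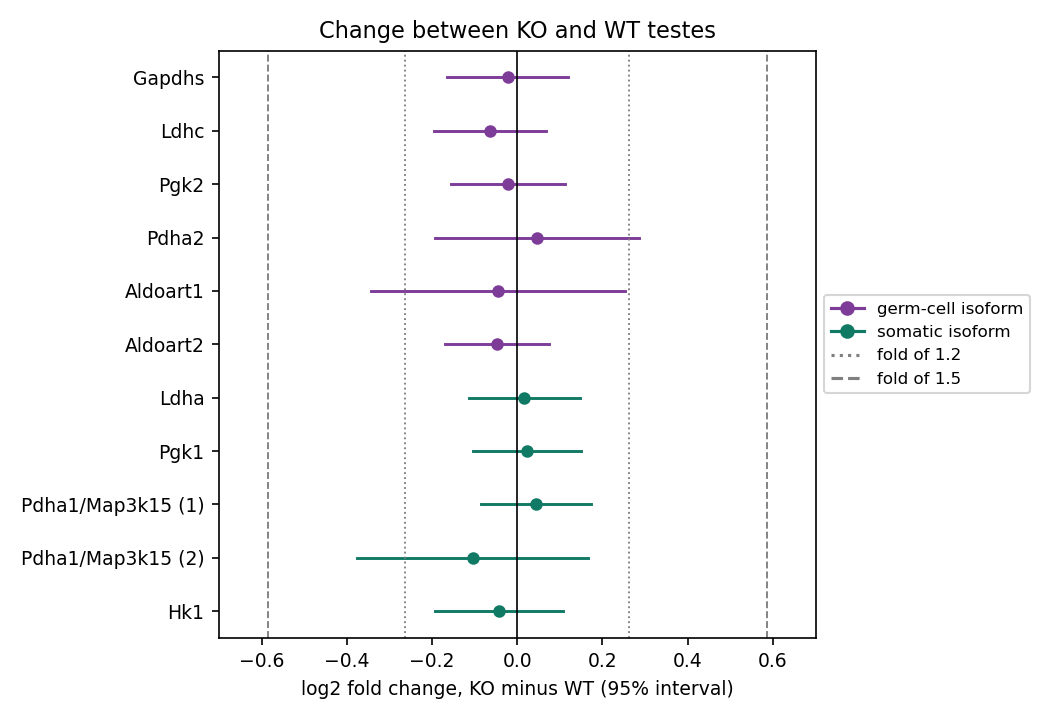
Change of each enzyme, KO minus WT on the log2 scale (horizontal axis), with its 95% limma interval as a line. All 9 intervals of enzymes with a probe set of their own lie inside the fold of 1.5. At least 71.9% of named probe sets have such an interval too. The intervals of Pdha2 and Aldoart1 cross the fold of 1.2.

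For 7 of 9 enzymes with a probe set of their own, the KO arrays or the WT arrays stood farther apart than the change itself. The share of all named probe sets that do so was not counted, so this is not read as particular to these enzymes. The genotypes overlapped for 6 of 9, against 67.5% of named probe sets. The signal lay above the 75th percentile of all 4 arrays for 8 of 9, all but Pgk1, against 30.9% of named probe sets. Each enzyme was taken at its brightest probe set and the background was not, so these shares are not like for like. Both KO arrays were lower for 2 of 9, Ldhc and Aldoart2, against 12.3%, and both were higher for 1 of 9, Pgk1, against 20.1%. Gapdhs, Pgk2, Pdha2, Aldoart1 and Hk1, 5 of 9, shared an order across the arrays, KO replicate 1 above KO replicate 2 and WT replicate 2 above WT replicate 1, which 27.8% of named probe sets also showed.

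**Figure D3:**
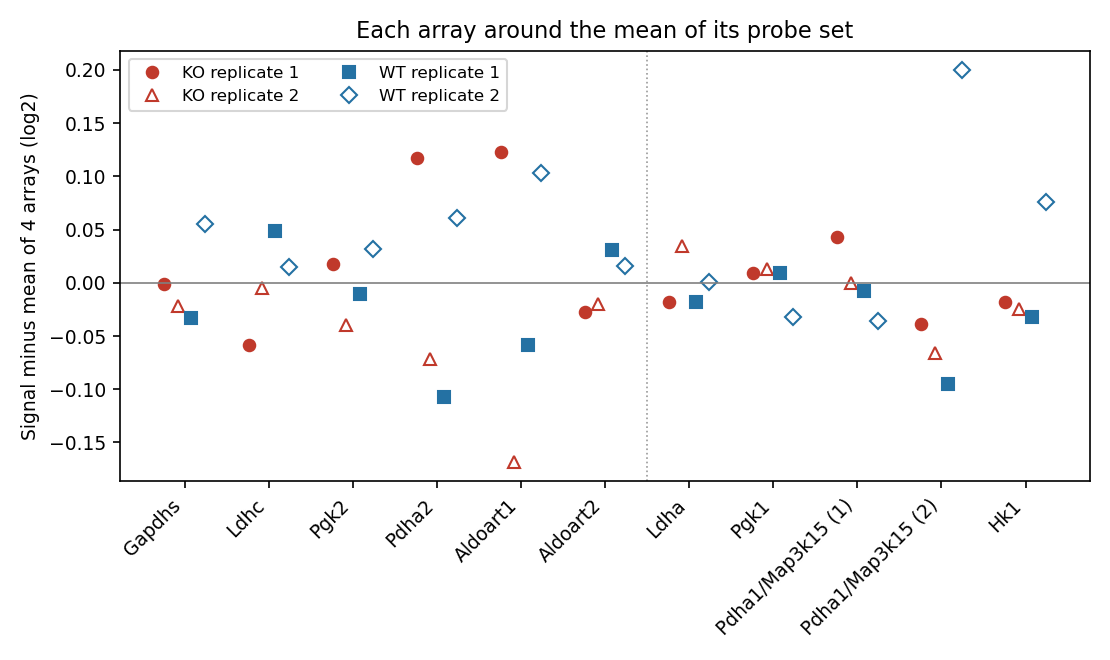
Deviation of each enzyme on each of the 4 arrays from its own mean over the arrays (log2, vertical axis), KO arrays left of WT arrays. Among enzymes with a probe set of their own, Aldoart1 and Pdha2 swing most, by 0.291 and 0.225 over the arrays, and Ldhc and Aldoart2 are the enzymes whose KO points both lie under both WT points.

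As a group, the germ-cell isoforms had a median change of -0.033 (-0.064 to 0.046, 6 genes). The somatic isoforms had a median of 0.017 (-0.043 to 0.023, 3 genes), beside 0.011 over all named probe sets. The 3 somatic genes include Hk1, at -0.043, whose probe set does not separate its spermatogenic form. The somatic group is therefore not purely somatic. By array, the median deviation of the germ-cell isoforms was 0.0084 and -0.030 in KO testes, against -0.022 and 0.044 in WT testes, so that the genotypes overlapped. The spermatid markers, none of which passed an unadjusted p of 0.05 in limma, had a median change of -0.027 (-0.053 to 0.016). Of them 8 of 12 lay below 0, against 43.1% of named probe sets. Their median deviation was -0.0036 and -0.023 in KO testes, against -0.0072 and 0.021 in WT testes, which overlapped, whereas their sums did not, with a summed linear signal of 36986 to 37201 in KO testes, against 37412 to 37861 in WT testes. The part of these markers in the result was not tested. The summed linear signal of the germ-cell isoforms was 16175 to 16600 in KO testes and 16522 to 17028 in WT testes. The spermatocyte markers, 12 of 12 measured, had a median change of 0.043. Their sums were 23910 to 24562 in KO testes and 23555 to 23621 in WT testes, again without overlap. Among single named probe sets, 20.1% had both KO arrays higher and 12.3% had both lower. The sums of the spermatid and spermatocyte markers are therefore not read as particular to those markers.

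The log2 ratio of each germ-cell isoform to its somatic counterpart was then compared within arrays, for 5 pairs. Its change was -0.076 for Gapdhs over Gapdh, -0.080 for Ldhc over Ldha, -0.044 for Pgk2 over Pgk1, -0.014 for Aldoart1 over Aldoa and -0.017 for Aldoart2 over Aldoa. The ratio of Ldhc to Ldha, around its mean, was -0.040 and -0.040 in KO testes, against 0.066 and 0.015 in WT testes, the pair in which the genotypes did not overlap. Its p of 0.333 in an exact two-sided permutation test is the smallest that 4 arrays allow, and adjusted over the 5 pairs it was 0.833. The other pairs had p of 0.667 or 1 in the same exact permutation test.

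Among 24 other glycolysis enzymes with a probe set of their own, of 29 listed, none passed an adjusted p of 0.05, and the median change was -0.0053. Of these, 1 of 24 was past an unadjusted p of 0.05 in limma, against 4.1% of named probe sets, which is near the background. That gene was Pfkl, the liver form of the rate-setting phosphofructokinase. It had 8.26 and 8.43 in KO testes, against 8.78 and 8.51 in WT testes, a change of -0.30 with an unadjusted p of 0.0445 in limma. Tpi1, which interconverts the triose phosphates, had 10.53 and 10.63 in KO testes, against 10.71 and 10.76 in WT testes (-0.15, unadjusted p 0.051). On the other side stood Tigar, a fructose bisphosphatase that slows glycolysis, at 0.15, and the hexokinase Hk3 at 0.11.

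Among 12 of 13 listed genes of the pyruvate dehydrogenase complex and its regulators, none passed either level, and the median change was -0.0026. Pdk4, a kinase that switches the complex off, had the highest change, 0.24, with an unadjusted p of 0.151 in limma. The E1 beta subunit gene Pdhb had 0.095, but 0.025 with the mean over its probe sets. Pdpr, a regulator of the phosphatase that switches the complex on, had -0.15 and the kinase Pdk1 had -0.088. These sizes moved with single arrays, and leaving out each in turn gave 0.077 to 0.39 for Pdk4, 0.013 to 0.18 for Pdhb, -0.21 to -0.076 for Pdpr and -0.17 to -0.0053 for Pdk1.

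Among 14 of 16 listed carriers of sugar, lactate and pyruvate, none passed an adjusted p of 0.05 in limma, where 4 were past an unadjusted p of 0.05, 2 in each direction, against 2.14% of named probe sets higher and 1.96% lower. Slc2a1, the basal glucose carrier GLUT1, had 8.78 and 8.80 in KO testes, against 8.99 and 8.98 in WT testes. Both KO arrays were lower, with a change of -0.19 ± 0.048 and an unadjusted p of 0.00984 in limma. Emb, a partner of the lactate carriers at the cell surface, had 7.86 and 8.07 in KO testes, against 8.35 and 8.25 in WT testes. Its change was -0.33 ± 0.086 with an unadjusted p of 0.0117 in limma, but a second, dimmer probe set at 4.90 and 5.03 in KO testes, against 4.81 and 5.002 in WT testes, gave 0.059 with overlapping genotypes.

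Slc2a12, another glucose carrier, had 7.29 and 7.23 in KO testes, against 7.12 and 7.01 in WT testes, a change of 0.20. The lactate exporter Slc16a3, MCT4, had 7.44 and 7.57 in KO testes, against 7.37 and 7.23 in WT testes, also 0.20. Both had higher KO arrays without overlap, at unadjusted p of 0.0270 and 0.0437 in limma. The carriers that germ cells are known to use most were closer to 0, with -0.0074 for Slc2a3, -0.037 for the lactate carrier Slc16a7 and 0.017 for its partner Bsg. Sertoli, Leydig and macrophage markers differed by array in the same samples. The 12 Sertoli genes had a summed linear signal of 7756 to 8268 in KO testes, against 7531 to 8170 in WT testes. Their median change was 0.056, with 10 of 12 above 0, against 10654 of the 18820 genes with a probe set of their own. Their mean deviation was -0.014 and 0.084 in KO testes, against 0.026 and -0.096 in WT testes, with KO replicate 2 highest and WT replicate 2 lowest. The 6 Leydig genes measured of 8 had a summed linear signal of 8618 to 9796 in KO testes, against 9069 to 9952 in WT testes. Their median change was -0.080, with 6 of 6 below 0, against 43.1% of named probe sets. The 5 macrophage genes had a sum of 812 to 959 in KO testes, against 868 to 1084 in WT testes, with a median of -0.16. Their part in the carrier values was not tested.

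**Figure D4:**
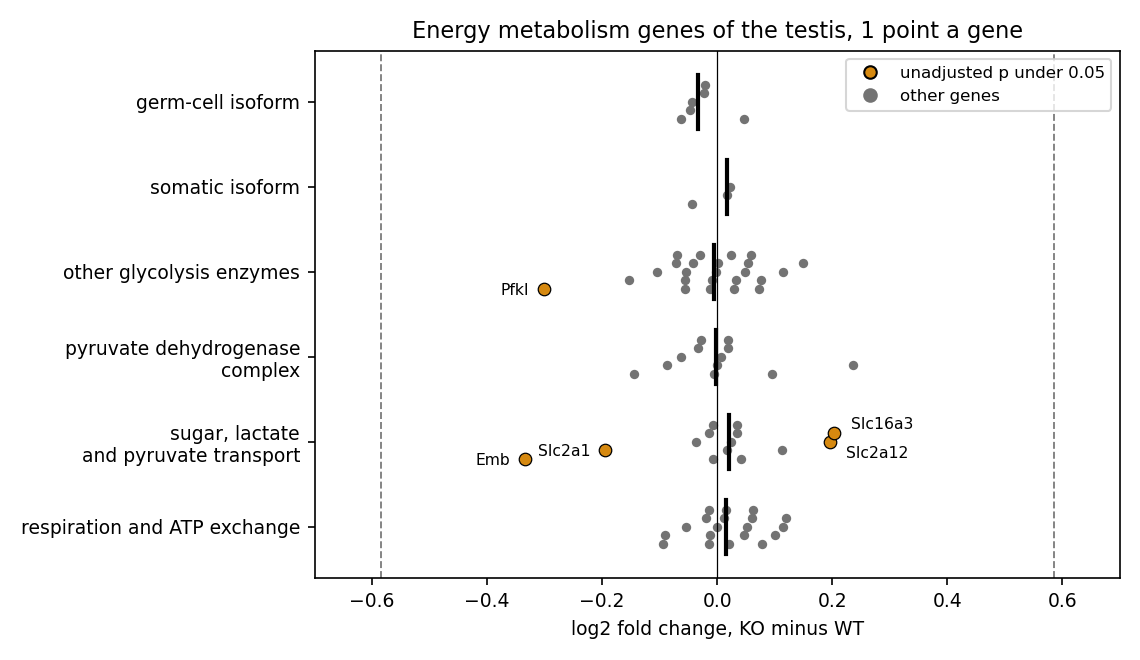
Change of each gene, KO minus WT on the log2 scale (horizontal axis), 1 point a gene, in the germ-cell and somatic isoforms and in 4 lists of related genes, with a vertical bar at each median and dashed lines at the fold of 1.5. Pfkl, Slc2a1, Emb, Slc16a3 and Slc2a12 are past an unadjusted p of 0.05, none past an adjusted one, and the medians lie between -0.033 and 0.021.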

How the data were processed

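Whole-testis RNA was measured on 4 arrays, 2 KO and 2 WT, each from a pool of 3 mice. The deposited values were log2 signals that the authors made by RMA (background correction, quantile normalization and probe summary), with Partek 6.13.1224 named in the submitters' processing notes. The genome build and annotation are not given in the sources used here. RMA forces the arrays to a common distribution, so a shift of all genes could not be seen, and depth does not apply: the number of arrays limits the precision.

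Of 35556 probe sets, the 23099 with a gene symbol in the platform annotation were tested with limma 3.58.1 in R 4.3.3 (lmFit and eBayes, two-sided, Benjamini-Hochberg over all 23099), with no covariate. A gene was represented by its brightest probe set with no other symbol, and 1881 probe sets carried several. Pairs were tested with scipy 1.17.1, and the fit was checked on simulated data. Genes were named if they were among the 10 enzymes, were Azin2 or the paralogs Gapdh and Aldoa, or had 1 of the 2 most positive or 2 most negative changes in a list. The carriers named near 0 and the fold of 1.2 were chosen after values were seen, and the members and lists were chosen with earlier results of these data known.

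Alternatives were intensity-trended, robust and ordinary tests, quantile and median scaling, a filter on dim probe sets, all probe sets, the mean over a gene's probe sets, a replicate block and leaving out each array.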

Additional observations from a re-analysis of the deposited data

How the results depend on the processing

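Without any 1 array, the change spanned -0.067 to 0.022 for Gapdhs, -0.050 to 0.0067 for Pgk2, -0.048 to 0.14 for Pdha2, -0.19 to 0.10 for Aldoart1, -0.0095 to 0.043 for Ldha, -0.098 to 0.011 for Hk1, -0.0087 to 0.12 for Gapdh, -0.089 to 0.028 for Aldoa and -0.25 to 0.043 for the brighter Pdha1 and Map3k15 probe set. The median change of the germ-cell isoforms minus that of the somatic ones, -0.050, was 0.0070 without KO replicate 2 and 0.00023 without WT replicate 2. The changes of ratio spanned -0.18 to 0.031 for Gapdhs over Gapdh, -0.16 to 0.13 for Aldoart1 over Aldoa and -0.068 to 0.035 for Aldoart2 over Aldoa. With the mean over a gene's probe sets and all 4 arrays, Gapdhs over Gapdh changed by -0.035 rather than -0.076, and Gapdh itself by 0.020. Under the settings that kept all 4 arrays, all 97 values stayed above an adjusted p of 0.05. They covered the enzymes and the 2 probe sets shared by Pdha1 and Map3k15. Most of these settings altered only the spread or the probe sets tested and could not move a change, so its sign there was fixed in advance. Quantile and median scaling, and the mean over probe sets for Gapdhs and Pgk1, could move it and left each sign as it was.

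The enzymes past an unadjusted p of 0.05 numbered 0 in the limma fit and 1 in the ordinary equal-variance test, Aldoart2, and 0 with each array left out. Carriers past that p numbered 4, against 2 with an intensity trend, 2 with a robust trend, 1 in the ordinary test and 2 to 3 without any 1 array (2 without WT replicate 2) (this count was added after the data were seen). The unadjusted limma p was above 0.05 for Slc2a1 without KO replicate 1 (0.0508), for Emb without WT replicate 1 (0.0568), for Slc2a12 without KO replicate 1 or WT replicate 2 (0.113 and 0.125), for Slc16a3 without KO replicate 2 or WT replicate 2 (0.180 and 0.187) and for Pfkl without KO replicate 1 or WT replicate 1 (0.162 and 0.164). With all 4 arrays it was above 0.05 for Emb with the mean of its probe sets (0.115, change -0.14), for Slc2a12 with either trend (0.0534 and 0.0510), for Slc16a3 with either trend (0.0646 and 0.0615), the replicate block (0.0782) or every probe set (0.0557) and for Pfkl with the replicate block (0.0688), median centring (0.0526) or every probe set (0.0573), and the ordinary test gave a p above 0.05 for each of these 4 genes. Over all probe sets, 1 passed an adjusted p of 0.05, against 0 with every probe set of the table, 0 in the ordinary test and 0 to 2 without any 1 array. The count at a fold of 1.5 was 19, against 127 with every probe set, 10 above the median level, 6 in the ordinary test and 29 to 69 without any 1 array. The Azin2 change was -2.83 throughout these, with an adjusted p of 0.0707 with every probe set and 0.868 in the ordinary test, and -2.94 to -2.72 without any 1 array (adjusted p 0.294 without WT replicate 1 and 0.232 without WT replicate 2).

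Replicate numbers did not pair the samples (r = -0.08 between deviations of same-numbered arrays over probe sets). With the replicate block, 0 enzymes passed any threshold and 24 probe sets passed the fold of 1.5. The block, balanced over genotypes, cannot move a change, so Ldhc stayed at -0.064 and Aldoart2 at -0.047. The 2 pools a genotype limit every interval given, and the values carry no detection call for dim probe sets.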

Other observations

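Sperm also carry their own isoforms for respiration and for moving ATP. In a list of 20 genes that holds such isoforms together with somatic counterparts, among them Cycs, Cox6b1, Slc25a4 and Slc25a5, 19 had a probe set of their own, and none passed an adjusted p or an unadjusted p of 0.05 in limma. Their median change was 0.015, beside 0.011 over all genes with a probe set of their own. The germ-cell ADP/ATP carrier Slc25a31 had 10.44 and 10.27 in KO testes, against 10.20 and 10.26 in WT testes, a change of 0.12. Cytochrome c of the testis, Cyct, had 10.20 and 10.05 in KO testes, against 9.98 and 10.04 in WT testes, a change of 0.11. In both genes KO replicate 1 stood highest and the other KO array lay next to the higher WT array. The sperm sodium pump subunit Atp1a4 had 11.72 and 11.66 in KO testes, against 11.77 and 11.80 in WT testes, a change of -0.095. Its unadjusted limma p was 0.124, but 0.0359 with an intensity trend and 0.0402 with a robust trend, with no adjusted p under 0.05. The mitochondrial creatine kinase Ckmt1 had 4.87 and 4.81 in KO testes, against 4.90 and 4.96 in WT testes, a change of -0.091. This dim signal lay below the median of every array.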
